A study of Vitis vinifera with 36 samples.

Results

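The last step of berry ripening was described in the summer crop of the table grape Muscat Superior (Vitis vinifera), from intermediate sugar (stage E-L 36 of the modified Eichhorn-Lorenz scale) to harvest ripeness (E-L 38). Samples were chosen by their cultivar, crop and stage labels, which gave 3 libraries at E-L 36 and 3 at E-L 38, 6 of the 36 libraries of the study. The study grew 2 cultivars, Muscat Superior and Victoria, for a summer and a winter crop, and sampled 3 stages of each. The 3 summer Muscat Superior libraries of E-L 35, the start of veraison, are used here as the starting point of ripening.

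All vines were 7 years old in 2014, grew in southern China beneath rain shelters on a rootstock that the labels call unknown, and had been forced into growth with hydrogen cyanamide. For the winter crop vines were pruned, stripped of leaves and forced again in August. No group was left unforced. Each replicate is labelled as a separate biological replicate, and RNA came from 50 of its berries after the seeds were removed, so skin and flesh were measured together. In such bulk tissue, fewer cells of a type and less RNA per cell cannot be told apart. Markers of seed, skin or vascular cells could not be looked up, so the tissue label was not checked.

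Grape berries ripen without a burst of ethylene. At veraison they soften, import sucrose and store hexoses in the vacuole, and abscisic acid rises. Softening goes with enzymes that loosen the wall, such as expansins and pectinases, and coloured skins make anthocyanins through the phenylpropanoid and flavonoid routes. Small heat shock proteins are chaperones that bind unfolding proteins and are known for their response to heat.

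The 3 libraries of E-L 36 did not look alike. Expected counts summed to 9.86, 11.14 and 10.15 M (mega-counts) at E-L 36, to 10.16, 10.01 and 12.29 M at E-L 38, and to between 13.53 and 14.01 M at E-L 35. On the first principal component of the 9 summer Muscat Superior libraries, which held 50.5% of the variance, E-L 36 replicate 1 scored 56.9, beyond the 3 E-L 38 libraries at 43.7 to 44.2. Replicates 2 and 3 of E-L 36 scored -7.0 and 8.9, and the E-L 35 libraries -69.5 to -57.5. Log2 CPM (counts of a gene per mega-count of its normalized library, not per gene length) of replicate 1 correlated at 0.950 and 0.967 with the other E-L 36 libraries and at 0.967 to 0.974 with the E-L 38 libraries, across genes. Replicate 2 correlated at 0.959 to 0.963 with the E-L 38 libraries and replicate 3 at 0.970 to 0.973. Correlation with E-L 38 thus did not set replicate 1 apart from replicate 3. The E-L 38 libraries correlated at 0.980 to 0.983 with each other. Over the 2302 genes called between E-L 35 and E-L 38 with an absolute log2 change of at least 1, each library was placed on a scale from 0 (the E-L 35 mean) to 1 (the E-L 38 mean). The median position was 0.94 for E-L 36 replicate 1, 0.53 for replicate 2, 0.65 for replicate 3 and 0.97 to 1.02 for the E-L 38 libraries. Quartiles of the position were 0.66 and 1.21 for E-L 36 replicate 1, against 0.84 to 0.90 and 1.11 to 1.15 for the E-L 38 libraries. By median position the library labelled E-L 36 replicate 1 thus lay near the harvest-ripe libraries. The E-L 38 libraries set the value 1, so their own medians near 1 and narrow quartiles were partly fixed by the scale. Quartiles were 0.26 and 0.85 for E-L 36 replicate 2 and 0.42 and 0.85 for replicate 3, which are also outside the scale. Results are given with E-L 36 replicate 1 and without it.

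**Figure D1:**
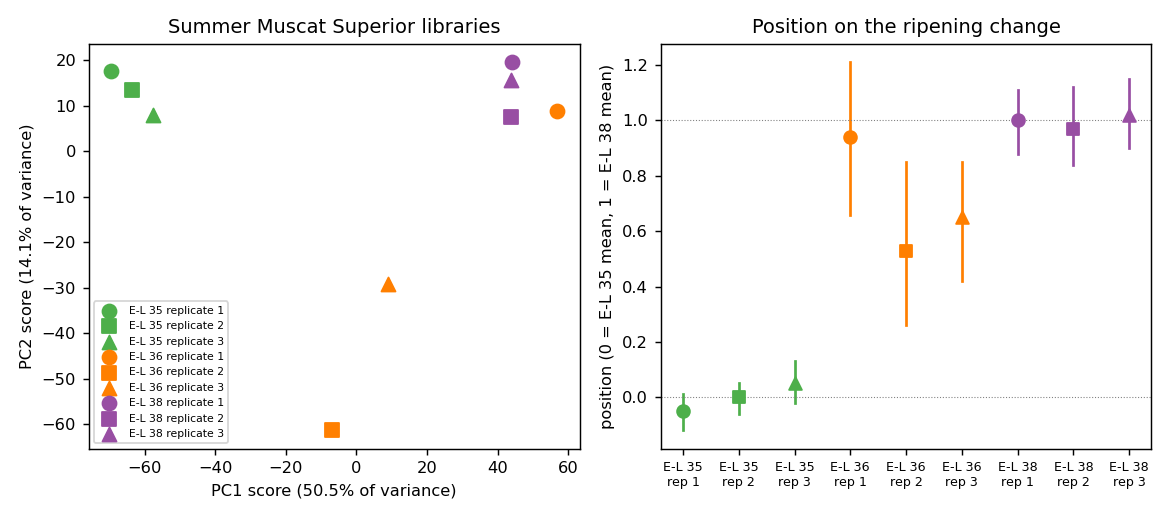
Left, scores of the 9 summer Muscat Superior libraries on the first and second principal component of log2 CPM, with stage by colour and replicate by symbol. Right, the median (symbol) and quartiles (line) of each library's position between the E-L 35 mean (0) and the E-L 38 mean (1) over 2302 genes. E-L 36 replicate 1 has a median of 0.94, near those of the E-L 38 libraries, which themselves set the value 1. Replicates 2 and 3 of E-L 36 lie at 0.53 and 0.65.

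The first comparison asked which genes differed between intermediate sugar and harvest ripeness. With all 6 libraries, 23 of 18842 tested genes (0.122%) were called, 8 higher at E-L 38 (0.0425%) and 15 lower (0.0796%). A gene was called where the edgeR quasi-likelihood test gave a Benjamini-Hochberg adjusted p below 0.05. Of these calls 34.8% were higher, against 34.9% of 527 DESeq2 calls and 85.2% of 230 limma calls on log2(FPKM + 1), a scaling that moved the median change of all genes by 0.10. Without E-L 36 replicate 1 the edgeR count was 844 of 19314 genes (4.37%), 276 higher and 568 lower, and it held all 23. By edgeR the count was 0 without E-L 36 replicate 3, E-L 38 replicate 1 or E-L 38 replicate 3, with 2269, 1949 and 1837 genes at an unadjusted p below 0.05, and 85 without E-L 38 replicate 2. With all 6 libraries 2673 had such a p. It was 319 when E-L 36 replicate 1 of summer Victoria, which shares in the estimate of the spread, was left out. The number of calls thus moved with single libraries. All 23 genes kept the sign of their change without each of the 6 libraries in turn. This was fixed beforehand, because the E-L 36 and E-L 38 libraries did not overlap in any of the 23.

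The files give gene identifiers without names, so the genes with the largest changes are given by identifier alone. They were picked among calls whose groups did not overlap, that reached 10 CPM and that were also called without E-L 36 replicate 1. These traits are thus no findings about them. VIT_208s0007g06060 had 0.343, 5.19 and 1.30 CPM at E-L 36 and 42.5, 19.7 and 35.3 CPM at E-L 38, after 2.42 to 4.94 CPM at E-L 35. Every E-L 38 library lay above every library of the earlier stages, and the rise was 3.80 on the log2 scale (SE 0.57, edgeR adjusted p = 0.0385). VIT_215s0046g01570 rose from 4.12, 1.32 and 2.38 CPM to 11.1, 6.27 and 14.8 CPM, a log2 change of 2.06 (SE 0.34, edgeR adjusted p = 0.0385). Expected counts, fractional where reads were shared between genes, were whole numbers in 47.2% of libraries for VIT_208s0007g06060. For VIT_215s0046g01570 they were so in 2.8%, so the levels of these single genes are uncertain.

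The largest falls among calls of sufficient level were of genes that were high at E-L 36 alone. VIT_213s0019g02630 had 1.62 to 1.93 CPM at E-L 35, then 89.9, 7.12 and 31.9 CPM at E-L 36, and 3.36, 3.08 and 3.57 CPM at E-L 38. VIT_201s0010g01260 had 2.80 to 3.46 CPM at E-L 35, 36.1, 4.68 and 22.2 CPM at E-L 36, and 2.27, 1.59 and 2.35 CPM at E-L 38. In both, E-L 36 replicate 1 was the highest library and replicate 2 the lowest of its group. The groups did not overlap, as the choice of genes required. The changes were -3.68 (SE 0.65, edgeR adjusted p = 0.0437) and -3.32 (SE 0.56, edgeR adjusted p = 0.0385), and -2.54 and -2.68 without replicate 1. For these 2 genes replicate 1 was not like the E-L 38 libraries, but stood farthest from them. Expected counts were whole numbers in 33.3% of libraries for VIT_213s0019g02630, whose level is thus uncertain, and in 100% for VIT_201s0010g01260.

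Gene groups of berry ripening were followed through 213 loci in 14 lists. Their identifiers were recalled from published grape gene families, with the version digit 2 of the files inserted, and were not checked against an annotation. A RefSeq gene table of another assembly places a gene of the recalled symbol on the chromosome named in the identifier for 45 of 45 loci looked up, which does not establish identity. A locus is therefore called "listed as" its family here. Of the 213, 207 were in the files and 188 were tested.

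With all 6 libraries none of the 188 was called by edgeR, where 0.122% of all genes were. At an unadjusted p below 0.05, 23 were higher and 26 lower, where 6.08% of all genes were higher and 8.11% lower, 14.2% together. DESeq2 called 8 higher and 7 lower, where it called 0.977% of all genes higher and 1.82% lower, 2.80% together. With limma on log2(FPKM + 1), 5 were higher and 1 lower, beside 1.04% and 0.18% of all genes, 1.22% together. Whatever their p, 8993 of the 18842 tested genes were higher at E-L 38 and 9788 lower. These values for all genes are the background of each list below. Without E-L 36 replicate 1, edgeR called 20 of 191 tested list loci, 4 higher and 16 lower, where 1.43% of all genes were higher and 2.94% lower. In 16 of these 20, replicate 1 lay nearer to the E-L 38 mean than to the mean of the other E-L 36 libraries, against 76.3% of the 841 genes so called that were tested with all libraries and 59.3% of all tested genes. It lay inside the range of the E-L 38 libraries in 9 of the 20, in 27.3% of the 841 and in 35.2% of all tested genes. The loci named below are these 20, GST4 and VIT_215s0021g02700, chosen after their values were seen, and the locus of each list with the highest mean CPM. Loci that differed between crops are named further on. Where the text says that one of the 20 rose or fell, the call is the one without replicate 1.

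**Figure D2:**
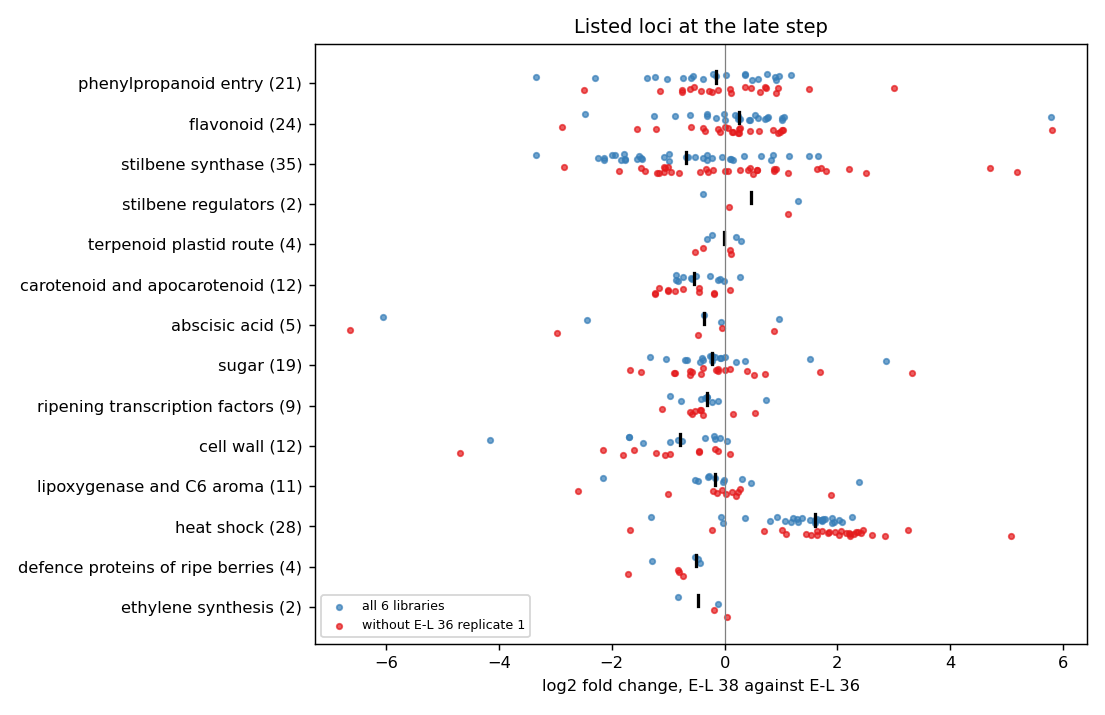
Log2 fold change of each listed locus, E-L 38 against E-L 36 (x axis), by list (y axis, number of loci tested with all libraries), with all 6 libraries (blue) and without E-L 36 replicate 1 (red). Black bars are list medians with all 6 libraries. The heat shock list lies to the right, at a median of 1.60, and the cell wall list to the left, at -0.79.

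Loci of the cell wall list were lower at harvest. Of 12 tested, 11 were lower at E-L 38 and 1 higher, with a median log2 change of -0.79 where the median of all genes was -0.01. None passed with all 6 libraries, and 6 had an unadjusted p below 0.05, all lower, where 8.11% of all genes were so lower. DESeq2 called 4 and limma 1, all lower, and 6 fell without replicate 1. Summed over the 9 loci listed as expansins, which loosen the bonds between wall polymers, CPM was 6390 to 7230 at E-L 35. The sum was 3890, 5750 and 5910 CPM at E-L 36 and 3390, 3370 and 3970 CPM at E-L 38. Replicate 1 of E-L 36 fell inside the range of the E-L 38 libraries, and the other E-L 36 libraries lay above it.

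Among expansin loci, VIT_206s0004g00070 went from 104 to 148 CPM at E-L 35 to 0.915, 15.7 and 18.9 CPM at E-L 36 and 0.791, 0.638 and 0.567 CPM at E-L 38. The groups did not overlap, but replicate 1 of E-L 36 was close to the ripe level. Its log2 change was -4.15 (SE 0.77, edgeR adjusted p = 0.0501) with all libraries and -4.69 (SE 0.37, edgeR adjusted p = 2.3e-05) without replicate 1. VIT_213s0067g02930 had 480, 1170 and 1480 CPM at E-L 36 and 402, 443 and 300 CPM at E-L 38, a change of -1.45 (SE 0.32, edgeR adjusted p = 0.06) and of -1.80 (SE 0.23, edgeR adjusted p = 0.00133) without replicate 1. VIT_218s0001g01130 and VIT_214s0108g01020 also fell, by 0.97 and 1.22 on the log2 scale. Each of the first 3 loci had been at its highest mean at E-L 35. The expansin locus with the highest mean at E-L 38, VIT_215s0021g02700, changed little, by -0.08 (SE 0.60, edgeR adjusted p = 0.974). It had 1910, 1870 and 2290 CPM at E-L 36 and 1820, 1480 and 2470 CPM at E-L 38. At E-L 35 it was lower, at 887 to 949 CPM.

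The other wall loci were listed as polygalacturonase or pectin methylesterase, which cut or de-esterify pectin. VIT_216s0022g00940 had 40.1 to 44.4 CPM at E-L 35, 19.7, 20.4 and 13.1 CPM at E-L 36 and 3.76, 9.04 and 3.89 CPM at E-L 38. Here all 3 E-L 36 libraries were alike and above all E-L 38 libraries, and the change was -1.69 (SE 0.35, edgeR adjusted p = 0.0591), or -1.61 (SE 0.39, edgeR adjusted p = 0.0322) without replicate 1. VIT_208s0007g08330 had 28.0, 155 and 157 CPM at E-L 36 against 27.0, 50.3 and 28.0 CPM at E-L 38, so replicate 1 alone was at the ripe level, and it fell by 2.15 without it. VIT_216s0022g00960, with the highest mean CPM of the list, stood at 7570, 7130 and 7490 CPM and then 6050, 7280 and 6210 CPM, overlapping groups with no call.

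**Figure D3:**
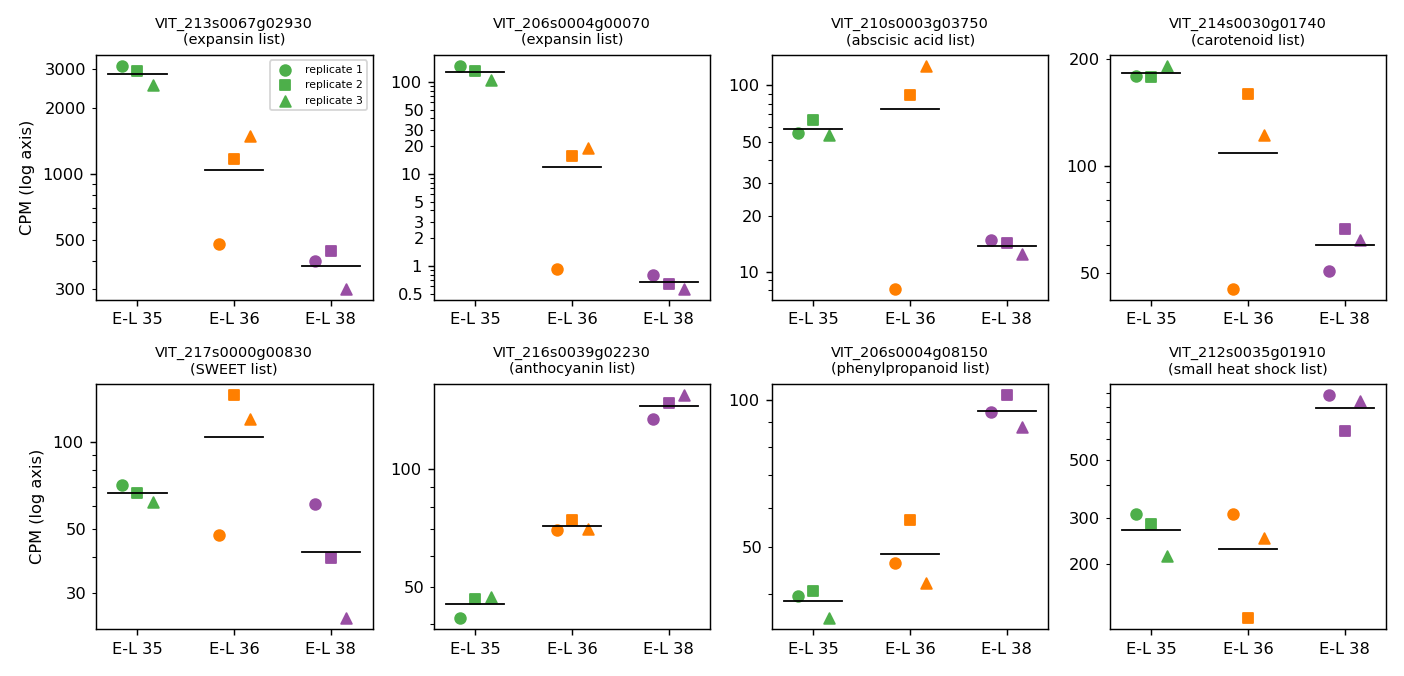
CPM on a log axis of 8 listed loci in each summer Muscat Superior library at E-L 35, E-L 36 and E-L 38, with replicates by symbol and group means as bars. In the expansin, abscisic acid, carotenoid and SWEET panels the E-L 36 circle (replicate 1) lies at or near the E-L 38 level, and in the anthocyanin and phenylpropanoid panels the 3 E-L 36 libraries lie together below E-L 38.

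Carotenoid loci followed the same pattern of libraries. Carotenoids are the substrate of abscisic acid and of aroma norisoprenoids. Of 12 loci tested, 11 were lower and 1 higher at E-L 38, with a median of -0.54. None was called by edgeR, DESeq2 or limma. An unadjusted p below 0.05 was found for 2, both lower, where 14.2% of all genes had such a p, 8.11% lower. The summed level was 963 to 1000 CPM at E-L 35, 404, 904 and 793 CPM at E-L 36 and 393, 521 and 449 CPM at E-L 38. Most of this sum came from loci listed as carotenoid cleavage dioxygenases, so it does not measure the synthesis loci. VIT_214s0030g01740, listed among desaturases, hydroxylases and epoxidases of the pathway, had 45.1, 159 and 122 CPM and then 50.5, 66.6 and 61.9 CPM. It was the 1 locus of the list that fell without replicate 1, by 1.24 (SE 0.18, edgeR adjusted p = 0.00267), and its change with all libraries was -0.87 (SE 0.31, edgeR adjusted p = 0.213). VIT_213s0064g00840, listed as a carotenoid cleavage dioxygenase, the enzymes that release norisoprenoids, had 192, 399 and 297 CPM against 185, 213 and 229 CPM, and its 2 groups overlapped.

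Abscisic acid loci were widely split among the E-L 36 libraries. The list held 3 loci of synthesis (9-cis-epoxycarotenoid dioxygenase) and 2 of breakdown (ABA 8'-hydroxylase, ABA being abscisic acid). The 5 tested loci summed to 21.4, 120 and 149 CPM at E-L 36 and to 42.5, 31.9 and 26.4 CPM at E-L 38, after 122 to 193 CPM at E-L 35. In replicates 2 and 3 of E-L 36 most of this was VIT_210s0003g03750, listed as 9-cis-epoxycarotenoid dioxygenase, which cleaves a carotenoid in the committed step of abscisic acid synthesis. It had 8.12, 89.2 and 127 CPM at E-L 36 and 14.8, 14.2 and 12.4 CPM at E-L 38. Replicate 1 was below every E-L 38 library and the other E-L 36 libraries were far above them. The change was -2.44 (SE 0.57, edgeR adjusted p = 0.0738), and -2.97 (SE 0.21, edgeR adjusted p = 7e-06) without replicate 1. DESeq2 called 1 locus of this list lower and limma none. An unadjusted p below 0.05 was found for 2, both lower, where 8.11% of all genes were so lower. Of these, 1 was a locus of synthesis and 1 of breakdown.

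**Figure D4:**
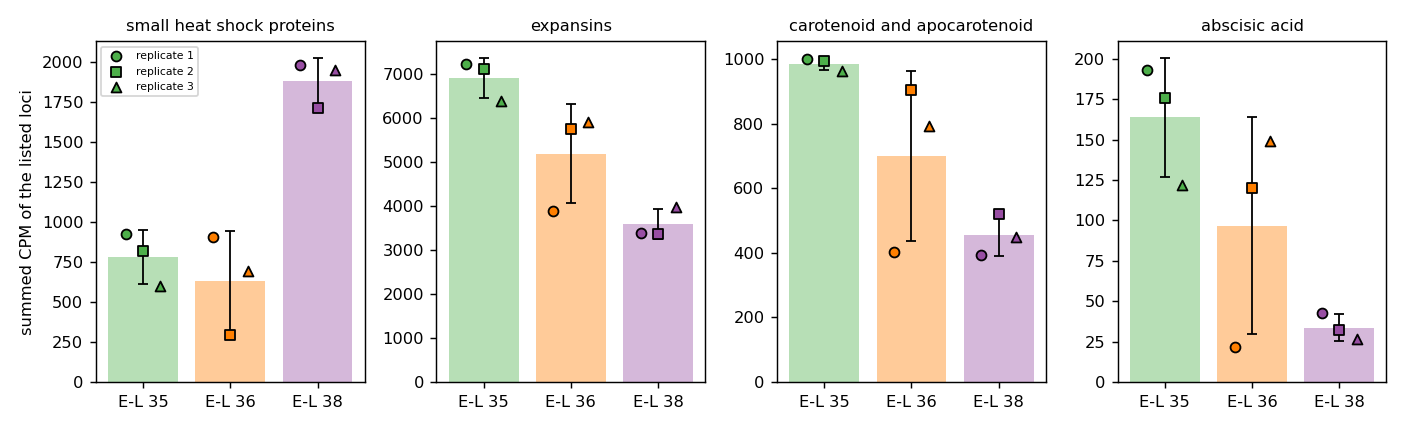
Summed CPM of the loci listed as small heat shock proteins, expansins, carotenoid and abscisic acid genes at E-L 35, E-L 36 and E-L 38 of summer Muscat Superior. Most of the carotenoid sum comes from loci listed as carotenoid cleavage dioxygenases, and the abscisic acid sum holds loci of synthesis and of breakdown. Bars are means of 3 libraries, error bars SD, and symbols single libraries. The small heat shock sum is higher in all 3 E-L 38 libraries (1710 to 1980 CPM) than in any other, and in the other 3 panels E-L 36 replicate 1 lies near E-L 38.

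Of 19 sugar loci, 4 were higher and 14 lower, at a median of -0.22. Neither direction held a call with all 6 libraries. At an unadjusted p below 0.05, 2 were higher and 4 lower, where 6.08% and 8.11% of all genes were. DESeq2 called 1 in each direction and limma none. VIT_217s0000g00830, listed as a SWEET transporter, a family that lets sugars out of cells, had 47.9, 145 and 120 CPM at E-L 36 and 61.2, 39.6 and 24.7 CPM at E-L 38. It fell by 1.67 without replicate 1 (SE 0.28, edgeR adjusted p = 0.00597), and its change with all libraries was -1.32 (edgeR adjusted p = 0.093). VIT_218s0001g05570, listed with the hexose and tonoplast monosaccharide transporters, had 139, 242 and 186 CPM against 121, 149 and 146 CPM and fell by 0.62. VIT_207s0005g00750, listed as a sucrose synthase and highest in CPM, had 3960, 1970 and 2520 CPM and then 2400, 2550 and 2240 CPM. There replicate 1 was far above all other libraries, and no call was made.

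The flavonoid list, which covers the route to anthocyanins, flavonols and proanthocyanidins, had 16 loci higher and 8 lower at E-L 38, at a median of 0.26. It summed to 1010, 1410 and 1150 CPM at E-L 36 and 1480, 1950 and 1700 CPM at E-L 38, which did not overlap. None was called with all 6 libraries. At an unadjusted p below 0.05, 4 were higher and 3 lower, where 6.08% and 8.11% of all genes were. DESeq2 called 1 in each direction, and limma 2, both higher. VIT_216s0039g02230, listed as UFGT, the glucosyltransferase that makes anthocyanidins into stable anthocyanins, had 69.8, 74.0 and 70.0 CPM at E-L 36 and 134, 147 and 154 CPM at E-L 38. The 3 E-L 36 libraries agreed closely, replicate 1 included, and stood above 41.6 to 47.1 CPM at E-L 35. The change was 1.02 with all libraries (SE 0.21, edgeR adjusted p = 0.0573) and 1.01 without replicate 1 (SE 0.24, edgeR adjusted p = 0.0318).

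VIT_204s0079g00690, listed as GST4, a glutathione transferase known for anthocyanin transport to the vacuole, had 146, 145 and 149 CPM at E-L 36 and 293, 322 and 293 CPM at E-L 38. Its groups were well apart, yet it was not called (log2 change 1.05, SE 0.42, edgeR adjusted p = 0.267). VIT_205s0136g00260, listed as chalcone synthase and highest in CPM, overlapped between stages with 178, 356 and 213 CPM and then 278, 437 and 293 CPM. In the branch to proanthocyanidins, VIT_200s0361g00040, listed as anthocyanidin reductase, had 1.60, 4.58 and 3.03 CPM against 1.29, 1.17 and 1.38 CPM and fell by 1.56 (SE 0.39, edgeR adjusted p = 0.0364). VIT_207s0005g01210, listed among the MYB regulators of the pathway, had 0.572, 2.85 and 1.95 CPM against 0.297, 0.638 and 0.081 CPM and fell by 2.88.

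At the entry to the route, 10 of 21 phenylpropanoid loci were higher and 11 lower, at a median of -0.16. With all 6 libraries edgeR called none, and DESeq2 and limma called 3 and 2, all higher. At an unadjusted p below 0.05, 4 were higher and 2 lower, where 6.08% and 8.11% of all genes were. VIT_206s0004g08150, listed as cinnamate 4-hydroxylase, which hydroxylates cinnamate ahead of all these products, had 46.4, 56.6 and 42.1 CPM at E-L 36 and 94.5, 102 and 87.9 CPM at E-L 38. It rose by 0.94 without replicate 1 (SE 0.24, edgeR adjusted p = 0.0436), beside 0.97 with all libraries (SE 0.21, edgeR adjusted p = 0.06). VIT_216s0050g00390, listed as 4-coumarate-CoA ligase and highest in CPM, had 72.5, 214 and 174 CPM and then 138, 126 and 136 CPM, so that the E-L 38 libraries lay between those of E-L 36.

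Stilbene synthases, which make resveratrol from the same precursor as chalcone, differed widely between single libraries. The 35 tested loci summed to 12.8 to 15.8 CPM at E-L 35, then 157, 32.6 and 63.6 CPM at E-L 36 and 80.6, 58.4 and 45.8 CPM at E-L 38. Replicate 1 of E-L 36 was the highest of all 9 libraries. No locus was called by edgeR, DESeq2 or limma, and none had an unadjusted p below 0.05. The median change was -0.68 with all libraries and 0.17 without replicate 1, so that its sign turned on that library. Reads of such near-identical genes can be split between them: whole-number expected counts, in 80% of libraries or more, were found for 1 of these loci and for 73.1% of genes tested, so single loci of the family are uncertain. VIT_216s0100g01170, highest in CPM, had 13.5, 3.05 and 4.65 CPM against 17.0, 11.0 and 9.97 CPM. VIT_205s0049g01020, listed as a MYB regulator of stilbene synthases, had 60.6, 19.2 and 38.9 CPM against 22.5, 36.0 and 32.7 CPM.

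Loci listed as ripening transcription factors of the NAC and MADS-box families were slightly lower, 8 of 9, at a median of -0.32. With all 6 libraries edgeR called none, nor did DESeq2 or limma. At an unadjusted p below 0.05, 1 was higher and 4 lower, where 6.08% and 8.11% of all genes were. VIT_214s0083g01050, listed as MADS-box, had 17.3, 27.3 and 24.8 CPM against 19.8, 17.2 and 17.5 CPM and fell by 0.52 without replicate 1 (SE 0.11, edgeR adjusted p = 0.0165). VIT_201s0010g03900, also listed as MADS-box and highest in CPM, had 493, 657 and 564 CPM against 432, 464 and 475 CPM. Its groups did not overlap, with a change of -0.32 (SE 0.12, edgeR adjusted p = 0.227).

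The other lists held few changes. In the list of lipoxygenases and C6 aroma enzymes, 8 of 11 loci were lower, and VIT_203s0063g01820, listed with hydroperoxide lyase and alcohol dehydrogenase, had 5.95, 33.7 and 27.3 CPM against 1.78, 12.3 and 1.38 CPM and fell by 2.60. VIT_204s0044g01110, highest in CPM there, had 3440, 1970 and 2400 CPM against 2130, 2230 and 1970 CPM. All 4 thaumatin-like loci, a family of defence proteins of ripe berries, were lower. VIT_202s0025g04290 fell by 1.71, from 6.63, 34.5 and 24.6 CPM to 5.14, 15.0 and 7.13 CPM, while VIT_202s0025g04310 had 1780, 4080 and 3940 CPM against 1490, 2780 and 2500 CPM. Of the plastid route to terpenoids, VIT_203s0063g02030 had 722, 1090 and 941 CPM against 696, 835 and 817 CPM, and none of its 4 loci was called. For ethylene synthesis, VIT_211s0016g02380, listed as ACC oxidase, had 151, 42.0 and 70.5 CPM against 60.5, 53.8 and 34.4 CPM. In these 4 lists edgeR with all 6 libraries, DESeq2 and limma called none. An unadjusted p below 0.05 was found for 2 loci, where 14.2% of all genes had such a p.

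Loci listed as small heat shock proteins stood higher at harvest in nearly every case. Of 27 tested, 25 were higher at E-L 38, at a median of 1.60 on the log2 scale, and in 23 every E-L 38 library lay above every E-L 36 library, where 9.11% of all genes did so in that direction. Their summed level was 598 to 926 CPM at E-L 35, 907, 294 and 695 CPM at E-L 36 and 1980, 1710 and 1950 CPM at E-L 38. The means were 632 ± 311 CPM (SD, n = 3) at E-L 36 and 1880 ± 147 CPM at E-L 38. Replicate 1 of E-L 36 lay below all E-L 38 libraries for this sum and was the highest of its group.

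Single loci of the family did not pass with all 6 libraries. The edgeR test called none, and DESeq2 called 3 and limma 1, all higher. At an unadjusted p below 0.05, 11 were higher and none lower, where 6.08% and 8.11% of all genes were. VIT_212s0035g01910 had 312, 125 and 251 CPM at E-L 36 and 883, 647 and 839 CPM at E-L 38, a change of 1.78 (SE 0.60, edgeR adjusted p = 0.187). VIT_216s0022g00510 had 17.8, 17.0 and 13.4 CPM and then 33.8, 32.9 and 25.6 CPM. It rose by 1.01 without replicate 1 (SE 0.22, edgeR adjusted p = 0.0194), beside 0.93 with all libraries (SE 0.19, edgeR adjusted p = 0.0573). VIT_202s0154g00490 rose by 3.25 without replicate 1, from 0.305 and 0.108 CPM to 1.88, 2.34 and 2.03 CPM, where 3 counts are 0.244 to 0.304 CPM in these 6 libraries. The locus listed as HSFA2, a transcription factor that drives heat shock genes, went the other way: VIT_204s0008g01110 had 2.86, 11.4 and 6.28 CPM against 3.46, 3.62 and 1.38 CPM and fell by 1.68 without replicate 1 (SE 0.39, edgeR adjusted p = 0.0263). Expected counts were fractional for most loci of the family, so single members are uncertain. Temperature and sampling hour are not in the labels, and their part in this was not tested.

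Set against the whole of ripening, fewer genes were called at the late step. It held 23 calls (0.122%) with all libraries and 844 (4.37%) without E-L 36 replicate 1, so its size depends on that library. Between E-L 35 and E-L 38, edgeR called 5628 of 18842 genes (29.9%), 2699 higher and 2929 lower, and among the 188 list loci 23 higher and 39 lower, where 14.3% and 15.5% of all genes were. Between E-L 35 and E-L 36 it called 3429 genes (18.2%). These comparisons share their libraries with the late step. From E-L 35 to E-L 38 the cell wall list had a median of -1.40 with 7 of 12 loci called, all lower, and the carotenoid list -1.29 with 7 of 12 called, all lower. The small heat shock loci had a median of 0.34 over that span.

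The second comparison asked whether the late step differed between the cultivars in the summer crop. In summer Victoria edgeR called 6 genes between E-L 36 and E-L 38 (0.0318%), and none of the 188 list loci. The medians of its lists were 0.17 for cell wall, 0.14 for carotenoids, 0.33 for abscisic acid and -0.11 for small heat shock proteins, of which 8 of 27 were higher. In a test of the difference itself, 10 genes were called (0.0531%), 5 more positive in Muscat Superior and 5 more negative, and no list locus. Without E-L 36 replicate 1 of Muscat Superior that count was 336 (1.74%), without that of Victoria 320, and without both 1048. The Victoria E-L 36 libraries were also near the ripe state, at median positions of 0.94, 0.85 and 0.90 on the scale from E-L 35 to E-L 38 of their own cultivar.

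The third comparison set the summer step against the winter step of the same cultivar, in a fit of all 36 libraries. In winter, edgeR called 5006 of 19736 genes (25.4%), 12.3% higher and 13.1% lower, against 511 (2.59%) in summer in that fit. The 2 steps differed from each other in 1854 genes (9.39%), 930 with a more positive change in summer (4.71%) and 924 with a more negative one (4.68%), and in 2619 without summer E-L 36 replicate 1 (13%). The count was 1117 without winter E-L 38 replicate 3. Replicates 1 and 2 of winter E-L 36 differed little more than by sampling (chi-square per degree of freedom 1.48, against 25.6 and 26.0 for their pairs with replicate 3), and p-values that use this group may be too small. Without replicate 1 or 2 of that group the count was 1303 or 1340. Crop, season and sampling date cannot be told apart.

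Of 196 list loci tested in this fit 21 differed between the crops, where 9.39% of all genes did, so the lists were near the background. The change was more positive in summer in 12 and more negative in 9. All 21 kept their sign when each of the 12 libraries of the comparison was left out in turn, and 7 kept their call in every such fit. The kept sign adds no support, as the 21 were chosen by a call in these same libraries. CPM below is scaled over all 36 libraries. The locus listed as HSFA2, VIT_204s0008g01110, had 4.81 ± 2.06 CPM (SD, n = 3) at E-L 36 and 33.8 ± 6.98 CPM at E-L 38 in winter, against 6.79 ± 4.26 and 2.80 ± 1.24 CPM in summer. The difference of the changes was -4.12 on the log2 scale (SE 0.63, edgeR adjusted p = 0.000174), and it was called without any 1 library. The small heat shock locus VIT_212s0035g01910 differed the opposite way, with 207 ± 91.8 and 108 ± 22.4 CPM in winter (difference 2.72, SE 0.72, edgeR adjusted p = 0.0163, and 0.0508 without summer E-L 36 replicate 2). In winter 18 of 27 small heat shock loci were higher at harvest, at a median of 0.71, and 4 were called, all higher, where 12.3% of all genes were called higher. The winter medians were -1.15 for the cell wall list, -0.56 for carotenoids and -0.99 for abscisic acid. Called lower were 5 of 12, 5 of 12 and 1 of 5 loci, where 13.1% of all genes were, and 1 carotenoid locus was called higher. These lists thus had negative medians at the late step of both crops.

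Both loci listed as 9-cis-epoxycarotenoid dioxygenase that differed did so in opposite directions. VIT_219s0093g00550 went from 93.6 ± 19.6 to 16.1 ± 4.10 CPM in winter and from 15.1 ± 10.1 to 14.5 ± 9.43 CPM in summer, a difference of 2.46 (SE 0.65, edgeR adjusted p = 0.0169). Without summer E-L 38 replicate 1 the difference was 1.79 and was not called (edgeR adjusted p = 0.0984). VIT_210s0003g03750 stood at 8.66 ± 1.69 and 8.98 ± 0.547 CPM in winter, at both stages near the ripe summer level (difference -2.48, SE 0.68, edgeR adjusted p = 0.0208). Without summer E-L 36 replicate 1, 2 or 3 the edgeR adjusted p of the latter was 2.4e-06, 0.0512 and 0.0881.

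In the flavonoid list, VIT_218s0001g03430, listed as flavonol synthase, rose in winter from 50.8 ± 7.33 to 187 ± 38.7 CPM and had 43.3 ± 1.08 and 51.1 ± 7.08 CPM in summer (difference -1.64, SE 0.28, edgeR adjusted p = 0.000473). VIT_202s0033g00390 and VIT_202s0033g00410, listed with the MYB regulators of colour, fell in winter from 137 ± 20.6 to 50.4 ± 7.29 CPM and from 84.6 ± 13.6 to 26.4 ± 0.839 CPM. In summer they had 24.4 ± 10.0 and 19.3 ± 4.83 CPM at E-L 36 and 35.4 ± 8.01 and 22.0 ± 3.91 CPM at E-L 38. The differences were 1.98 and 1.86, and these 3 loci were called without any 1 library. Expected counts of the 2 MYB loci were whole numbers in 0% and 38.9% of libraries, so these single loci are uncertain. Of the NAC loci, VIT_219s0027g00230, VIT_208s0007g07670 and VIT_201s0026g02710 fell in winter by 1.82, 1.71 and 1.92 on the log2 scale, with summer changes of -0.23, -0.12 and -0.78. The call of the last was lost in 8 of the 12 fits that left out 1 library, and the others kept theirs. The thaumatin-like locus VIT_202s0025g04250 had no counts in summer E-L 36 and 0.646 ± 0.736 CPM in summer E-L 38, beside 7.90 ± 0.747 and 5.13 ± 3.62 CPM in winter. It was the 1 of the 21 whose call was lost without summer E-L 36 replicate 1 (edgeR adjusted p = 0.0501).

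**Figure D5:**
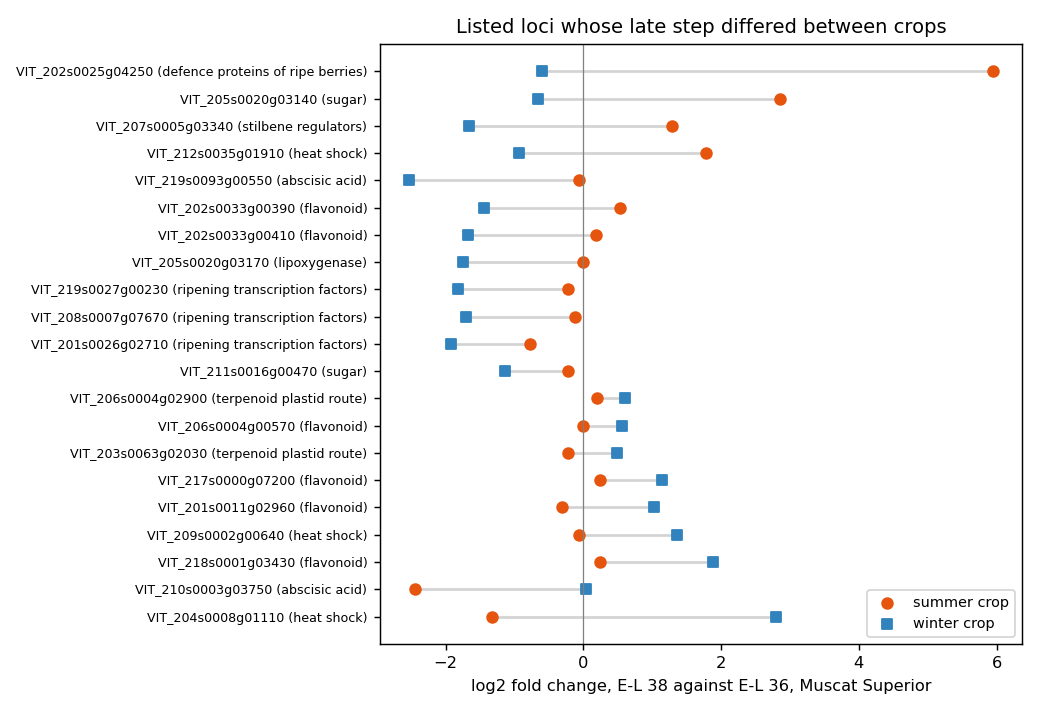
Log2 fold change of E-L 38 against E-L 36 in Muscat Superior for the 21 listed loci whose late step differed between crops, in summer (circles) and winter (squares), in order of the difference. The locus at the bottom, listed as HSFA2, changed by -1.32 in summer and 2.79 in winter, and the summer value at the top rests on a group with no counts at E-L 36.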

How the data were processed

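The authors deposited a table per library with expected counts (estimated reads per gene, fractional where reads were shared), FPKM and a transcript length, per the file headers. Reads were aligned with Bowtie per the submitters' processing notes. Not given in the sources used here are its version, the build, the annotation and the counter. Genes without a line were set to 0 and expected counts were rounded. The count test was that of edgeR 4.0.16 under R 4.3.3 (TMM factors 0.883 to 1.196, filterByExpr, robust quasi-likelihood, common coefficient of variation 0.195) on 18 summer libraries in 6 groups, with 12 residual degrees of freedom, or on all 36 libraries with 24 for the comparison of crops. SE is the log2 change divided by the root of F. Alternatives were DESeq2 1.42.0, limma 3.58.1 on log2(FPKM + 1) and log2(FPKM + 0.1), other scaling, no filter, a replicate block, fewer or more libraries, and leaving out each replicate. The procedure was tested on simulated data in which no E-L 36 library stood apart, so that test does not cover this trait of the data.

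Members, lists and tests were chosen with earlier results of these data known. The rule named, per list, up to 2 rising and 2 falling called loci, the locus of highest mean CPM where none passed, and 2 unlisted genes per direction with the largest change among calls that did not overlap, reached 10 CPM and were called without E-L 36 replicate 1. As no listed locus passed, those called without that replicate, those that differed between crops, GST4 and VIT_215s0021g02700 were named in addition, after their values were seen. None of 28119 identifiers matched the supplied gene table. Same-numbered replicates were not paired: their deviations correlated at -0.02 to 0.06. No sequence is shown, since none could be tied to these identifiers.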

Additional observations from a re-analysis of the deposited data

Results flagged for a closer look

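For 3 unlisted genes and 21 listed loci named in the report or plotted there, the late step differed between summer and winter Muscat Superior in the test of the difference itself, in edgeR on all 36 libraries. The difference, summer minus winter on the log2 scale, was 5.08 for VIT_208s0007g06060 (3.79 in summer, -1.29 in winter, edgeR adjusted p = 0.000645). It was -4.21 for VIT_201s0010g01260 (-3.32 and 0.89, edgeR adjusted p = 0.000779) and -4.77 for VIT_213s0019g02630 (-3.68 and 1.10, edgeR adjusted p = 0.000489). These 3 were also called without summer E-L 36 replicate 1. They had been picked for a large summer change in the same libraries and for a late-step call without that replicate. A difference between crops was thus partly built in and adds no support. For VIT_215s0046g01570, picked by the same rule, the difference was 2.10 and was not called (edgeR adjusted p = 0.0898).

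Among listed loci the difference was -4.12 for VIT_204s0008g01110, 2.72 for VIT_212s0035g01910 and -1.42 for VIT_209s0002g00640 of the heat shock list. In the abscisic acid list it was -2.48 for VIT_210s0003g03750 and 2.46 for VIT_219s0093g00550. In the flavonoid list it was 1.98 for VIT_202s0033g00390, 1.86 for VIT_202s0033g00410, -1.64 for VIT_218s0001g03430, -1.32 for VIT_201s0011g02960, -0.90 for VIT_217s0000g07200 and -0.56 for VIT_206s0004g00570. The NAC loci VIT_219s0027g00230, VIT_208s0007g07670 and VIT_201s0026g02710 differed by 1.59, 1.59 and 1.14. The sugar loci VIT_205s0020g03140 and VIT_211s0016g00470 differed by 3.52 and 0.92, the former by 1.76 with no call without summer E-L 38 replicate 1 (edgeR adjusted p = 0.211), and the plastid route loci VIT_203s0063g02030 and VIT_206s0004g02900 by -0.72 and -0.42. The value was 2.96 for VIT_207s0005g03340, listed as a stilbene regulator, and 1.65 with no call without that library (edgeR adjusted p = 0.233). It was 1.75 for VIT_205s0020g03170, listed as a lipoxygenase. Of these 21 loci, 7 were called without any 1 of the 12 libraries. For the thaumatin-like locus VIT_202s0025g04250 the fitted value was 6.55, which is no measure of size because summer E-L 36 had no counts.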

How the results depend on the processing

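The count of genes called at the late step, 23 with all 6 libraries, moved with nearly every choice: 38 with DESeq2 size factors in edgeR, 13 with no filter, 527 with DESeq2, 3 from the 6 libraries alone, 230 and 199 with limma on log2(FPKM + 1) and log2(FPKM + 0.1), and 511 with all 36 libraries. Leaving out 1 replicate gave 0 to 844. Added after the data were seen, leaving out E-L 36 replicate 1 of Victoria gave 319, of both cultivars 1691, and of Muscat Superior from all 36 libraries 1539. The 23 genes kept their sign in these fits, and 22 did so in the fit of 6 libraries. As the groups of these genes did not overlap, this adds no support. Replicate numbers are shared between stages, but samples of 1 number did not deviate together, nor did every sample correlate best with its own number. With the replicate block edgeR called 0 genes at the late step (2418 at an unadjusted p below 0.05), 6 for the cultivar difference and 1772 for the crop difference.

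The count of called list loci, 0, was 1 with DESeq2 size factors, 15 with DESeq2, 2 from 6 libraries, 6 and 4 with limma, 13 with all 36 libraries and 0 to 20 without 1 replicate. In the added fits it was 9, 42 and 33, in the order above. The cultivar difference, 10 genes, was 196 with DESeq2, 3 to 336 without 1 replicate and 1048 without both E-L 36 replicates 1. The crop difference, 1854 genes, was 1464 with no filter, 2214 with DESeq2 and 1117 to 2619 without 1 replicate. For 37 named loci, 627 alternative values held 25 lost calls, 105 gained ones and 9 changes of sign, all of loci without a call. VIT_216s0050g00390 (-0.20) was at 0.07 with either limma fit and 0.11 without E-L 36 replicate 2. In the 3 late-step fits that left out E-L 36 replicate 1 of Muscat Superior, VIT_205s0049g01020 (-0.38) was at 0.07 and VIT_207s0005g00750 (-0.23) at 0.10. Without 1 replicate in turn these 3 loci ranged from -0.54 to 0.11, -0.71 to 0.07 and -0.43 to 0.10. The cause of these shifts was not tested. At this depth 3 counts are 0.244 to 0.304 CPM, and levels below that could not be told from 0.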
